A study of Mus musculus with 6 samples.

Results

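The 48 genes described here drive or mark the cell division cycle. Of these, 11 license and copy DNA, 4 supply nucleotides, 2 act on chromatin and DNA repair in S phase and 3 are transcription factors. A further 5 are G1 and S phase cyclins with CDK2, and 23 act mainly in G2 and mitosis. They were picked by gene symbol from a list of replication and mitosis genes, and all 48 were found among the 17256 genes of the table and tested among 13071 genes that passed the filter on low counts. RNA was sequenced from the epithelium of the antrum, which lines the outlet end of the stomach, in 6 libraries of C57BL/6 mice. Each mouse group had atrophic gastritis brought on over 20 weeks with MNNG, an alkylating carcinogen, given with a drug the labels write as Ranitine. The mice then received PEEPA-P5 (3 libraries), a compound known here only by that code name, by gavage for 2 weeks, or vehicle for 2 weeks (3 libraries). No library of untreated stomach without gastritis was analysed here. The labels give no sex, age, dose or kind of vehicle.

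In the antrum, surface and gland cells are lost and replaced continually, and dividing progenitors in the isthmus and gland base provide the new cells, so cell cycle transcripts in whole epithelium come from a small dividing fraction. Before DNA synthesis, the licensing factors Cdc6 and Cdt1 load the ring-shaped MCM helicase on origins, and the E2F transcription factors, released from the retinoblastoma protein by cyclin D and cyclin E kinases, switch on these genes. Genes for mitosis peak later under B-Myb (Mybl2) and FoxM1, which are recruited through promoter elements known as CHR, often beside CCAAT boxes bound by NF-Y, and in resting cells the DREAM complex represses these genes through CHR elements.

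Promoter windows are shown for 5 genes that carry the values below: Ube2c, Cenpa and Cdk1 from the mitosis genes and Mcm5 and Cdc6 from the replication genes. Each window runs from 250 bases before to 50 bases after the RefSeq start, in RefSeq GRCm38.p6, which is a later build than the mm9 of the submitters' processing notes, and reads 5′ to 3′ on the gene's own strand. Capitals mark the CHR element (TTTGAA, or TTCAAA on the opposite strand), the CCAAT box (CCAAT, or ATTGG) and E2F sites (TTTCCCGC, TTTCGCGC, TTTGCCGC or TTTGGCGC, or their reverse complements). The Ube2c window is chr2:164769679-164769978 (+), that of Cenpa chr5:30666636-30666935 (+), that of Cdk1 chr10:69352863-69353162 (-), that of Mcm5 chr8:75109259-75109558 (+) and that of Cdc6 chr11:98907901-98908200 (+).
Ube2c: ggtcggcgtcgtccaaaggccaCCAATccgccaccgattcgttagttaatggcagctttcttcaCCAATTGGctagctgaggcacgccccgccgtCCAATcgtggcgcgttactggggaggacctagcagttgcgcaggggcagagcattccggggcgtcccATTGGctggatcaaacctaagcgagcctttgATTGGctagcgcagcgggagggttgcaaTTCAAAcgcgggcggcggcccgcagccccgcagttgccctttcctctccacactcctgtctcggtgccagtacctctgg
Cenpa: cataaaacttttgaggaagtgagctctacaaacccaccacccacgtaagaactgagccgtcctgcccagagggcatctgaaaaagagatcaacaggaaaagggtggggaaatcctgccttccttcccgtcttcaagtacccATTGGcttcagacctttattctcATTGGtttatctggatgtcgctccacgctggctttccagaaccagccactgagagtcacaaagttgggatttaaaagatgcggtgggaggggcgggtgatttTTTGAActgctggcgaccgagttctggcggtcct
Cdk1: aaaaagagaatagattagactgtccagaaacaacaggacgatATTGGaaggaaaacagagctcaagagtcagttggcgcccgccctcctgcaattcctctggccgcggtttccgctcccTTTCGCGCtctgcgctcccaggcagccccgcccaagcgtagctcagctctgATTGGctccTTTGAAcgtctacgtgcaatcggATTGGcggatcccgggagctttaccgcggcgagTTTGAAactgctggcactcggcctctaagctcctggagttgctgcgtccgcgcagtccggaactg
Mcm5: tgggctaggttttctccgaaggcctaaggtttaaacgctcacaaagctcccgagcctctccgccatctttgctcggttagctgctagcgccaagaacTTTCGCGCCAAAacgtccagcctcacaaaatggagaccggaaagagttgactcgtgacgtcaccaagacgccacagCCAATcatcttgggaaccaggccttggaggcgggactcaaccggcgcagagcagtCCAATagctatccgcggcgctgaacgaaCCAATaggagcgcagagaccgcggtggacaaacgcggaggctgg
Cdc6: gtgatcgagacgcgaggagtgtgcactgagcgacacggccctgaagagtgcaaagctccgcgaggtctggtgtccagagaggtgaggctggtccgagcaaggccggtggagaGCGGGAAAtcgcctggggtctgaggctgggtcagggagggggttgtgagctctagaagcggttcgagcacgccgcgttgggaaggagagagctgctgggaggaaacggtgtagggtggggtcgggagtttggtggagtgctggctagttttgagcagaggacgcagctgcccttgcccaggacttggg
In Ube2c a pair of CCAAT boxes on opposite strands share bases, and in Mcm5 both E2F matches overlap.

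A window was matched by gene identifier for 36 of the 48 genes. Mcm4, Gins1, Gins2, Exo1, Foxm1, Ccnd1, Ccnd2, Ccne2, Ccna2, Cdc25c, Aurkb and Kif20a had none. Only the first listed window of each gene was used, so other start sites were not searched. The CHR letters were in 14 of 19 windows of mitosis genes (73.68%), in 1 of 13 windows of replication genes (Mcm2, 7.692%) and in 18.11% of 27025 windows of all genes. All 14 of those mitosis windows also held a CCAAT box, a pairing found in 7.123% of all windows. E2F letters were in 6 of 13 windows of replication genes (46.15%), namely Mcm3, Mcm5, Mcm6, Mcm7, Cdc6 and Cdt1, in 1 of 19 mitosis windows (Cdk1, 5.263%) and in 2.316% of all windows. The CCAAT box was common in both, with 9 of 13 replication windows and 17 of 19 mitosis windows against 37.92% of all windows. These are matches of letters, not measured binding. The windows shown above all held the CHR or E2F letters of their group, but other genes with values below did not. Birc5 had none of the 3 motifs in its window. The mitosis genes Cenpe and Ccnb1 and the replication genes Pcna and Rrm2 had only a CCAAT box. Mcm2 had the CHR letters and a CCAAT box but no E2F site.

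**Figure D1:**
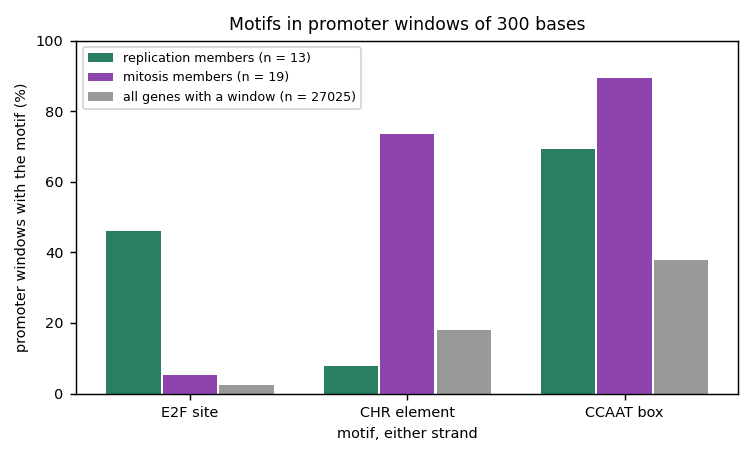
Bars give the percent of promoter windows (vertical axis) that hold each motif on either strand (horizontal axis) in 13 replication genes, 19 mitosis genes and 27025 genes in all. The CHR element was in 73.68% of mitosis windows and the E2F site in 46.15% of replication windows.

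Total expected counts per library lay between 16388852 and 16903559. The libraries numbered 3 stood apart in both groups, and the log2 differences and counts without both of them are given after the pairs. The 4 surface mucous cell markers Muc5ac, Gkn1, Gkn2 and Tff1 summed to between 340560 and 386690 TPM in PEEPA-P5 libraries and between 292660 and 337460 TPM in vehicle libraries, and the 5 general epithelial markers to between 6613 and 6923 TPM with PEEPA-P5 and between 4868 and 6544 TPM with vehicle. Of 4 squamous keratins in the table, Krt5 and Krt14 had at most 1 count in any library. Krt13 had 8.91, 10.98 and 3.83 CPM in PEEPA-P5 libraries against 3.57, 2.21 and 1.41 CPM in vehicle libraries, and Krt4 had 1.45, 1.11 and 2.42 CPM against 0.690, 0.324 and 0.897 CPM, so both were higher in every PEEPA-P5 library (edgeR adjusted p = 0.412 for each). The antral hormone gastrin (Gast) was far lower in both libraries numbered 3, with 1460, 1004 and 47.996 CPM in PEEPA-P5 libraries against 1859, 1219 and 135 CPM in vehicle libraries. The 5 enteroendocrine markers, Gast among them, summed to 7851, 5922 and 290 TPM with PEEPA-P5 against 11317, 10964 and 3986 TPM with vehicle. The 3 chief cell markers summed to 6521, 8784 and 2069 TPM in PEEPA-P5 libraries 1 to 3. In vehicle libraries 1 to 3 they summed to 8179, 22554 and 68267 TPM. Nearly all of each sum was Pgc, at 2065 TPM in PEEPA-P5 3 and 68237 TPM in vehicle 3. The 6 genes listed for parietal cells summed to 79.5, 499 and 27.8 TPM with PEEPA-P5 against 598, 2170 and 3708 TPM with vehicle. They included Cblif (intrinsic factor), a chief cell gene in mice, at 57.9, 122 and 8.33 TPM against 192, 427 and 351 TPM. The proton pump subunit Atp4a alone was at 1.51, 120 and 0.07 TPM against 115, 567 and 892 TPM. PEEPA-P5 3 was the lowest library in summed TPM for fibroblast markers (6 of 6 in the table), with 47.6, 73.8 and 5.04 TPM in PEEPA-P5 libraries against 79.9, 111 and 39.5 TPM in vehicle libraries. It was likewise lowest for smooth muscle (5 of 5), with 7.55 to 108 TPM in PEEPA-P5 libraries and 55.5 to 146 TPM in vehicle libraries, for endothelium (5 of 5), with 1.83 to 13.2 TPM in PEEPA-P5 libraries and 12.1 to 20.0 TPM in vehicle libraries, and for macrophages (6 of 6), with 7.62 to 52.7 TPM in PEEPA-P5 libraries and 25.8 to 61.7 TPM in vehicle libraries. No T cell marker passed 11 counts and no B cell marker passed 6 counts in any library.

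Summed over the 48 genes, levels differed more between libraries of a group than between the groups. The summed TPM was 779, 791 and 429 in PEEPA-P5 libraries 1, 2 and 3, against 685, 854 and 478 in vehicle libraries 1, 2 and 3. The library numbered 3 was thus the lowest of its group both with PEEPA-P5 and with vehicle. Gene by gene, PEEPA-P5 3 was the lowest PEEPA-P5 library for 47 of 48 genes and vehicle 3 the lowest vehicle library for 43 of 48, where the shares over all genes tested were 42.7% and 35.7%. PEEPA-P5 3 was the lowest of all 6 libraries for 31 genes (against 31.4% of all genes tested) and vehicle 3 for 16 (against 18.6%). The 6 isthmus and antral stem cell markers summed to 110, 103 and 66.2 TPM in PEEPA-P5 libraries against 102, 108 and 89.6 TPM in vehicle libraries, but did not move as 1 group. Lgr5, Axin2 and Stmn1 were lowest of their group in both libraries numbered 3, for Lgr5 with 11.99, 9.11 and 0.874 CPM in PEEPA-P5 libraries against 14.1, 17.5 and 2.75 CPM in vehicle libraries. In CPM, Sox9, Bmi1 and Lrig1 were instead highest of all 6 libraries in vehicle 3. In whole epithelium, fewer dividing cells and less cell cycle RNA per cell cannot be told apart. The part of these marker levels in the cell cycle values was not tested.

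**Figure D2:**
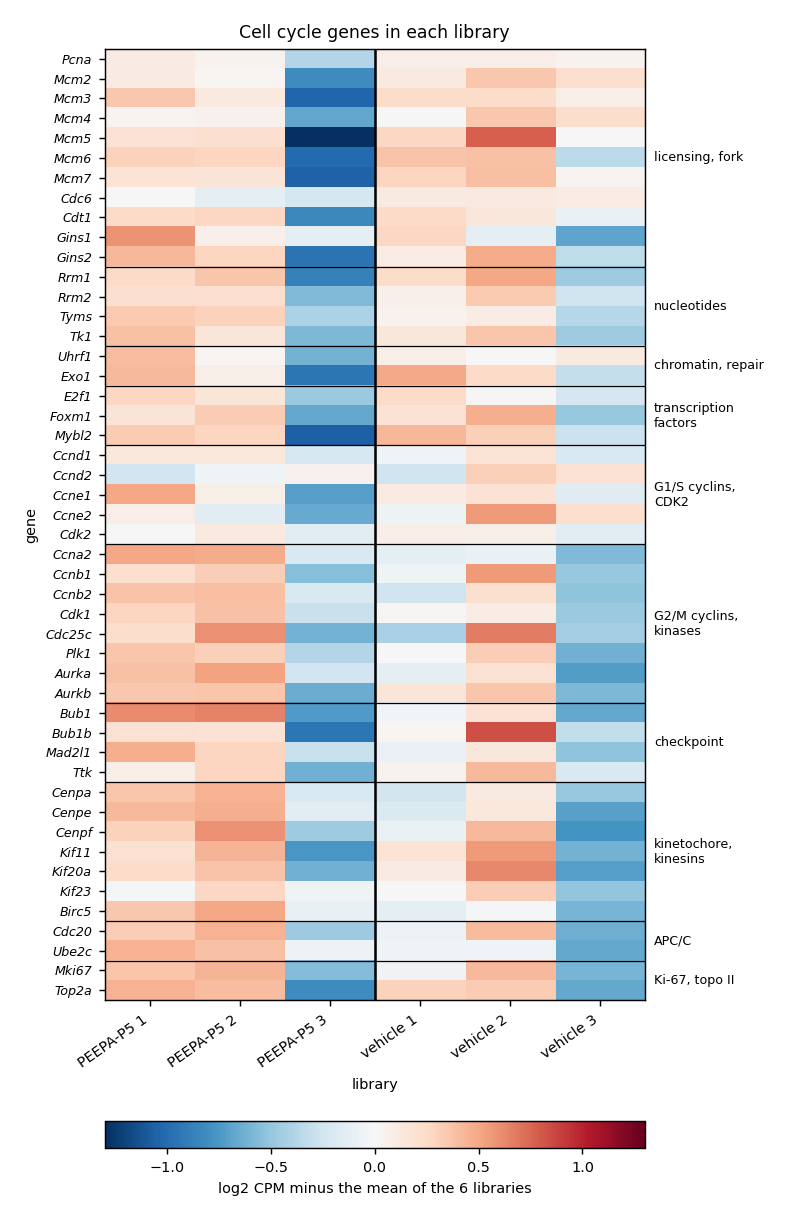
Colour gives each gene's log2 CPM minus its mean over the 6 libraries (red above, blue below), with genes in rows by role and libraries in columns, PEEPA-P5 on the left and vehicle on the right. Columns PEEPA-P5 3 and vehicle 3 are blue in most rows, and in PEEPA-P5 3 the replication rows at the top are the darker ones.

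No gene of the set passed edgeR's quasi-likelihood test with Benjamini-Hochberg adjustment at 0.05, and the same was so for all 13071 genes tested (0 genes, 0.0%; smallest adjusted p 0.412). With library number as a block, edgeR also called 0 genes (0.0%). DESeq2 called 101 genes (0.773%), 39 higher and 62 lower with PEEPA-P5, and none of the 48. At an unadjusted edgeR p under 0.05, 3 cell cycle genes were higher with PEEPA-P5 (6.25%, against 5.92% of all genes tested) and 0 were lower (against 6.14% of all genes tested); in either direction the share over all genes was 12.1%. The share of cell cycle genes higher was thus near that of all genes. DESeq2 gave 3 at that unadjusted threshold and limma-voom 2. The groups did not overlap in CPM for 2 of the 48 genes, both lower with PEEPA-P5 (Mcm2 and Cdc6), against 20.4% of all genes in either direction, 9.74% higher and 10.7% lower. As a difference in mean log2 CPM, PEEPA-P5 minus vehicle, the median of the 48 genes was -0.025, beside -0.0066 over all genes tested. By this measure 21 genes lay above 0 and 27 below. Later medians over genes are of this kind of difference, while the log2 differences of single genes over 6 libraries are edgeR's fitted values.

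By level per transcript length, averaged over the 6 libraries, Ube2c was highest at 89.1 TPM, followed by Pcna at 83.3 TPM, Birc5 at 38.3 TPM, Tk1 at 29.6 TPM and Ccnd1 at 24.7 TPM. Exo1 was lowest at 1.09 TPM, with 24 reads in PEEPA-P5 3 as the smallest count of any of these genes in any library. Estimates are uncertain for 8 genes that share more than 10% of their 31-base words with other genes' transcripts in GENCODE M21, most of them pseudogenes: Ccnb1 (27.7%), Mcm7 (26.8%), Cdc20 (25.5%), Uhrf1 (24.3%), Pcna (23.3%), Mybl2 (21.0%), Plk1 (14.8%) and Rrm2 (11.98%). Strand is not stated for these libraries in the sources used here, so where a gene's exons lie under those of an opposite-strand neighbour the reads of both cannot be told apart. This touches Gins2, with 70.7% of its exonic bases under Gse1, Kif20a (31.8%, Cdc23), Ube2c (22.8%, Tnnc2), Ccnd1 (21.9%), Mcm7 (13%), Ccne2 (10.5%, Ints8) and Ccna2 (10.4%, Exosc9).

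Among the licensing and fork genes, 10 of 11 had a log2 difference below 0 and PEEPA-P5 3 was the lowest library for 10 of 11. Mcm2, a subunit of the replicative helicase, had 33.7, 31.7 and 17.6 CPM in PEEPA-P5 libraries 1, 2 and 3, against 33.9, 39.9 and 36.4 CPM in vehicle libraries 1, 2 and 3. The groups were separate, but PEEPA-P5 1 and vehicle 1 were nearly level, and most of the distance came from PEEPA-P5 3. Its log2 difference was -0.41 (SE 0.24, edgeR adjusted p = 0.498). Cdc6, which loads the helicase with the origin recognition complex, had 10.96, 10.04 and 9.34 CPM in PEEPA-P5 libraries, against 11.9, 11.98 and 11.7 CPM in vehicle libraries. All 3 vehicle libraries lay close together and above all 3 PEEPA-P5 libraries, averaging 10.1 ± 0.812 CPM in PEEPA-P5 libraries and 11.9 ± 0.132 CPM in vehicle libraries (SD, n = 3 each). The Cdc6 difference was small, -0.23 in log2 (SE 0.14, edgeR adjusted p = 0.513).

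Mcm5, another helicase subunit, was at 28.8, 29.3 and 9.28 CPM with PEEPA-P5, against 30.5, 43.3 and 25.1 CPM with vehicle. The low PEEPA-P5 3 and the high vehicle 2 made this the largest negative log2 difference of the set, -0.55 (SE 0.44, edgeR adjusted p = 0.605), and the groups overlapped. Pcna, the sliding clamp that holds DNA polymerase on the template, was at 90.0, 86.4 and 64.3 CPM with PEEPA-P5, against 88.7, 88.5 and 86.4 CPM with vehicle. Apart from PEEPA-P5 3, its 5 other libraries lay within 4 CPM of each other. Cdt1, the partner of Cdc6 in helicase loading, was at 17.1, 17.3 and 7.999 CPM with PEEPA-P5, against 17.1, 15.9 and 13.5 CPM with vehicle, so that only PEEPA-P5 3 lay below the vehicle range. The other helicase subunits Mcm3, Mcm4, Mcm6 and Mcm7 and the fork component Gins2 had log2 differences between -0.37 (Mcm7) and -0.084 (Gins2). Gins1, in the same GINS complex as Gins2, was the exception at 0.34 (SE 0.30, edgeR adjusted p = 0.647), with 13.5, 9.34 and 8.201 CPM in PEEPA-P5 libraries against 10.8, 8.26 and 5.51 CPM in vehicle libraries.

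PEEPA-P5 3 was the lowest of the 6 libraries for each of the 4 nucleotide supply genes. Rrm2, the regulated subunit of ribonucleotide reductase, had 27.6, 27.9 and 16.1 CPM in PEEPA-P5 libraries, against 25.2, 30.4 and 20.0 CPM in vehicle libraries. The groups overlapped, although PEEPA-P5 3 lay below every vehicle library, and the log2 difference was -0.076 (SE 0.25, edgeR adjusted p = 0.909). Rrm1, the large subunit, was lowest of the 4 at -0.14, Tk1 (thymidine kinase) was at -0.020 and Tyms (thymidylate synthase) was highest at 0.18. Uhrf1, which keeps DNA methylation through replication, had a log2 difference of -0.065, and Exo1, a repair exonuclease, one of -0.23.

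Values of the 3 transcription factors overlapped between the groups. E2f1, which activates S phase genes, had 9.28, 8.58 and 5.44 CPM in PEEPA-P5 libraries, against 9.14, 7.77 and 6.597 CPM in vehicle libraries. Foxm1, which activates mitosis genes, had 18.7, 20.9 and 10.4 CPM in PEEPA-P5 libraries, against 19.0, 23.0 and 11.8 CPM in vehicle libraries. Each PEEPA-P5 value of Foxm1 lay below the vehicle value of the same number, with log2 differences of -0.023, -0.14 and -0.18. Mybl2, the B-Myb subunit of the complex that activates mitosis genes, had 16.02, 15.5 and 6.05 CPM in PEEPA-P5 libraries, against 17.2, 15.9 and 10.5 CPM in vehicle libraries. PEEPA-P5 3 was the low value for all 3 factors, and the log2 differences were -0.012 (E2f1), -0.11 (Foxm1) and -0.21 (Mybl2), with edgeR adjusted p-values of 0.820 or more.

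All 5 G1 and S phase genes overlapped between the groups. Ccnd1 (cyclin D1, which starts the phosphorylation of the retinoblastoma protein) was at 96.2, 95.9 and 75.8 CPM with PEEPA-P5, against 84.8, 99.2 and 76.0 CPM with vehicle. Its log2 difference of 0.043 (SE 0.14) turned to between -0.057 and -0.0023 under 4 other scalings. Ccnd2 (cyclin D2) was the single gene of the 48 for which PEEPA-P5 3 was not the lowest PEEPA-P5 library, at 102, 117 and 127 CPM with PEEPA-P5, against 101, 151 and 138 CPM with vehicle. Libraries 1 were level and the vehicle libraries 2 and 3 were higher, and the log2 difference was -0.18 (SE 0.16, edgeR adjusted p = 0.658). Ccne1 (cyclin E1, the partner of CDK2 at entry into S phase) was at 6.57, 4.85 and 2.76 CPM with PEEPA-P5, against 4.95, 5.23 and 4.10 CPM with vehicle, so the PEEPA-P5 libraries enclosed the vehicle range. Ccne2 (cyclin E2) had the lowest log2 difference of these 5 genes at -0.48 (SE 0.32, edgeR adjusted p = 0.541), while Cdk2, at -0.014, varied least of the 5.

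In the G2 and M group of cyclins, CDK1 and mitotic kinases, 7 of 8 genes had a log2 difference above 0. Ccna2 (cyclin A2, which partners CDK2 and CDK1 from S phase to early mitosis) had 80.2, 78.8 and 49.3 CPM in PEEPA-P5 libraries, against 51.8, 53.3 and 38.0 CPM in vehicle libraries. PEEPA-P5 1 and 2 lay above every vehicle library and PEEPA-P5 3 below vehicle 1 and 2, averaging 69.5 ± 17.4 CPM in PEEPA-P5 libraries and 47.7 ± 8.40 CPM in vehicle libraries (SD, n = 3 each). The Ccna2 log2 difference of 0.54 (SE 0.22) was the largest of the set, with an unadjusted edgeR p of 0.0412 and an adjusted p of 0.412. Cdk1, the kinase that starts mitosis, had 33.1, 35.4 and 22.2 CPM in PEEPA-P5 libraries, against 27.4, 29.0 and 19.3 CPM in vehicle libraries. Each PEEPA-P5 library lay above the vehicle library of its number, with a log2 difference of 0.26 (SE 0.22, edgeR adjusted p = 0.631). Ccnb1 (cyclin B1), the partner of CDK1, did not share this pattern, with 17.95, 19.3 and 10.5 CPM in PEEPA-P5 libraries against 14.8, 22.7 and 10.95 CPM in vehicle libraries, and was the lowest of the group at -0.023. Its relative Ccnb2 (cyclin B2) had 0.37.

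Plk1 (polo-like kinase, needed for spindle assembly and mitotic exit) had 44.5, 43.0 and 26.6 CPM in PEEPA-P5 libraries, against 34.7, 43.2 and 22.4 CPM in vehicle libraries. Aurkb, the kinase of the chromosomal passenger complex, had 17.3, 17.5 and 8.67 CPM in PEEPA-P5 libraries, against 15.2, 17.5 and 9.03 CPM in vehicle libraries. For both kinases libraries 2 were level between the groups; the log2 differences were 0.18 for Plk1 and 0.060 for Aurkb, and that of Aurkb turned to between -0.051 and -0.022 under 3 other scalings. Aurka, the centrosomal Aurora kinase, had 0.42, and Cdc25c, the phosphatase that activates CDK1, 0.13. The spindle checkpoint genes were split. Bub1 (a checkpoint kinase) was highest at 0.44 and Mad2l1 (which binds Cdc20) had 0.32, while Ttk (the kinase Mps1) had -0.16 and Bub1b (BubR1, which holds Cdc20 inactive) was lowest at -0.36. Bub1b was at 14.0, 13.9 and 6.32 CPM with PEEPA-P5, against 12.4, 21.9 and 9.74 CPM with vehicle, where vehicle 2 was the highest library.

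Of the kinetochore, kinesin and passenger complex genes, 5 of 7 had a log2 difference above 0. Birc5 (survivin, which targets the passenger complex to centromeres) was at 37.3, 41.5 and 27.4 CPM with PEEPA-P5, against 26.9, 28.7 and 19.2 CPM with vehicle. PEEPA-P5 1 and 2 exceeded every vehicle library and PEEPA-P5 3 did not, averaging 35.4 ± 7.21 CPM in PEEPA-P5 libraries and 24.9 ± 5.08 CPM in vehicle libraries (SD, n = 3 each). Birc5 had a log2 difference of 0.51 (SE 0.21), with an unadjusted edgeR p of 0.0436 and an adjusted p of 0.412. Cenpa, the histone H3 variant of centromeres, was at 18.6, 19.8 and 12.6 CPM with PEEPA-P5, against 12.2, 15.6 and 10.2 CPM with vehicle. Cenpe, a kinesin that carries chromosomes to the spindle equator, was at 18.8, 19.4 and 12.7 CPM with PEEPA-P5, against 12.3, 15.4 and 8.52 CPM with vehicle. In Cenpa and Cenpe too, PEEPA-P5 1 and 2 were above all vehicle libraries, and the log2 differences were 0.42 (SE 0.23) for Cenpa and 0.49 (SE 0.26) for Cenpe, with edgeR adjusted p-values of 0.481 for Cenpa and 0.470 for Cenpe. Cenpf, a kinetochore protein, had 0.27 and Kif23, a cytokinesis kinesin, 0.097; Kif20a, another cytokinesis kinesin, had -0.049 and Kif11, the motor that separates spindle poles, was lowest at -0.072.

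Cdc20 and Ube2c serve the anaphase-promoting complex, the ubiquitin ligase that ends mitosis. Ube2c, its ubiquitin-conjugating enzyme, had 79.9, 76.3 and 55.9 CPM in PEEPA-P5 libraries, against 56.6, 56.7 and 36.8 CPM in vehicle libraries. PEEPA-P5 3 lay just below vehicle 1 and 2, so the groups overlapped by less than 1 CPM, averaging 70.7 ± 12.9 CPM in PEEPA-P5 libraries and 50.02 ± 11.5 CPM in vehicle libraries (SD, n = 3 each). The log2 difference of Ube2c was 0.50 (SE 0.21), with an unadjusted edgeR p of 0.0464 and an adjusted p of 0.412. Cdc20, its activator, had 26.4, 28.8 and 15.2 CPM in PEEPA-P5 libraries, against 20.1, 28.1 and 13.6 CPM in vehicle libraries, which is 0.19 in log2 (SE 0.33, edgeR adjusted p = 0.810). Mki67, the gene of the widely stained proliferation antigen, had 152, 161 and 80.7 CPM in PEEPA-P5 libraries, against 115, 159 and 78.0 CPM in vehicle libraries. Libraries 2 and libraries 3 were nearly level between the groups, and the difference of 0.16 in log2 (SE 0.34, edgeR adjusted p = 0.849) came from libraries 1. Top2a, the topoisomerase that untangles sister chromatids, had 94.4, 91.0 and 39.1 CPM in PEEPA-P5 libraries, against 84.9, 86.7 and 43.3 CPM in vehicle libraries, and its log2 difference of 0.063 (SE 0.40) turned to between -0.074 and -0.016 under 3 other scalings.

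**Figure D3:**
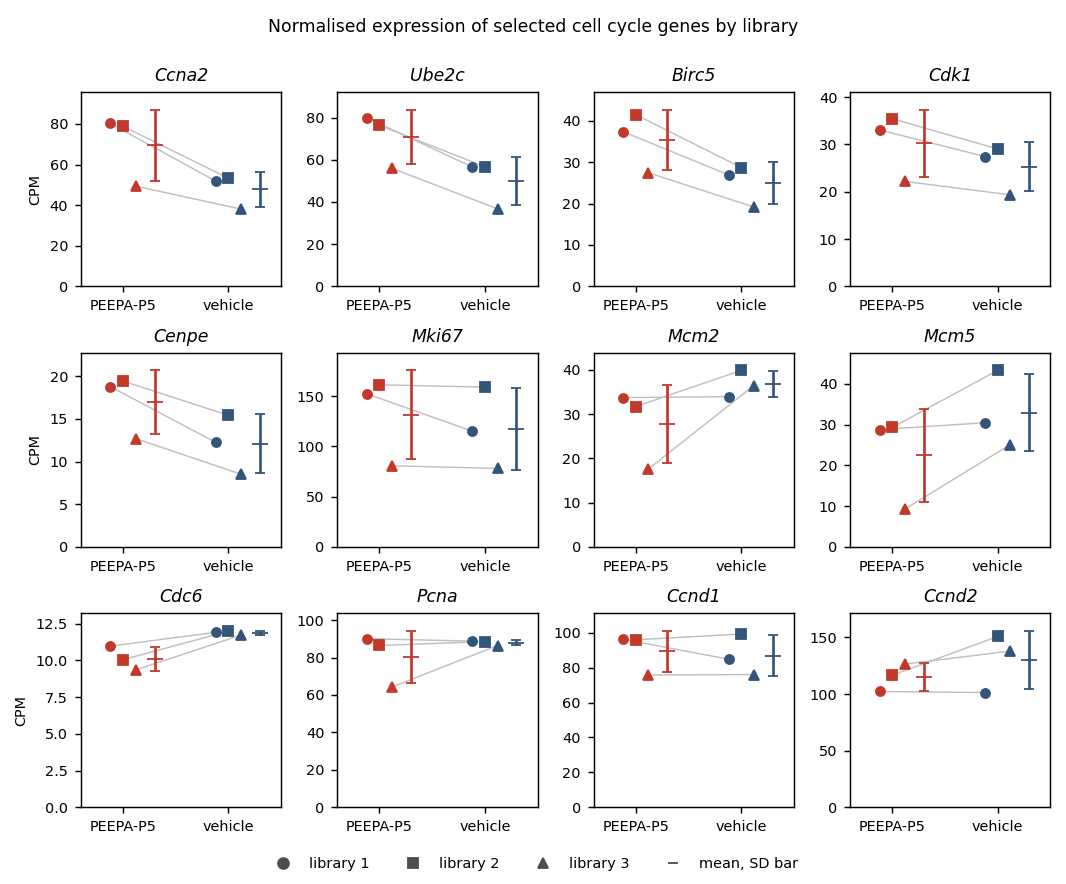
Points give the CPM (vertical axes, from 0) of 12 genes in each library, PEEPA-P5 left and vehicle right; the marker shape gives the library number, grey lines join libraries of the same number, and bars give the mean and SD of 3 libraries. Lines for Ccna2, Ube2c, Birc5, Cdk1 and Cenpe all run down from PEEPA-P5 to vehicle, while PEEPA-P5 3 is the low point of Mcm2, Mcm5 and Pcna.

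Same-numbered libraries of both groups were then set against each other. The labels give these numbers no meaning. The pairing rests on correlated deviations in these same libraries, so p-values and SEs with the block describe the data and add no separate support. Of the 48 genes, 13 were higher with PEEPA-P5 in 3 of 3 pairs (27.1%, against 22.4% of all genes tested) and 8 were lower in 3 of 3 (16.7%, against 24.5% of all genes tested). The 13 were Gins1 and 12 mitosis genes, and the 8 were Mcm2, Mcm5, Mcm6, Mcm7, Cdc6, Exo1, Foxm1 and Mybl2. Ccna2 had log2 differences of 0.63, 0.56 and 0.37 in pairs 1, 2 and 3. Birc5 had 0.47, 0.53 and 0.52, and Ube2c had 0.50, 0.43 and 0.60. For these 3 genes the pairs differed from each other by less than the libraries of either group did. With library number as a block, 8 genes had an unadjusted edgeR p under 0.05, all higher with PEEPA-P5 (16.7%, against 6.62% of all genes tested), and 0 were lower (against 7.06%). They were Ccna2, Ccnb2, Cdk1, Aurka, Cenpa, Cenpe, Birc5 and Ube2c, and none passed adjustment over all genes, where each had an edgeR adjusted p of 0.364. Their SEs were smaller with the block, for example 0.090 in place of 0.22 for Ccna2, with a log2 difference of 0.53.

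Both libraries numbered 3 were then left out, leaving 2 libraries a group. They were the lowest of their group for 47 (PEEPA-P5 3) and 43 (vehicle 3) of the 48 genes. P-values and SEs of this fit thus describe the data and add no separate support. The median log2 difference of the 48 genes was 0.068, beside 0.00060 over all genes. In pairs 1 and 2 alone, 20 of the 48 genes were higher with PEEPA-P5 in both (against 31.4% of all genes tested) and 9 were lower in both (against 32.0% of all genes tested). At an unadjusted edgeR p under 0.05, 8 genes were higher (16.7%, against 3.47% of all genes in that fit) and 0 were lower (against 4.48%). They were Ccna2, Cdk1, Aurka, Bub1, Cenpa, Cenpe, Birc5 and Ube2c, each with an edgeR adjusted p of 0.598, so none was called. Log2 differences of these mitosis genes were close to those over 6 libraries, at 0.60 (SE 0.093) for Ccna2, 0.51 (SE 0.12) for Birc5, 0.47 (SE 0.093) for Ube2c, 0.46 (SE 0.17) for Cenpa, 0.47 (SE 0.16) for Cenpe and 0.28 (SE 0.11) for Cdk1. Those of the helicase subunits were smaller than over 6 libraries, at -0.17 (SE 0.13) for Mcm2 and -0.34 (SE 0.18) for Mcm5, and Pcna was at -0.0026 (SE 0.089). Cdc6 was at -0.18 (SE 0.16), Mki67 at 0.20 (SE 0.16), Top2a at 0.11 (SE 0.089), Foxm1 at -0.083 (SE 0.15), Mybl2 at -0.066 (SE 0.14) and Ccnd2 at -0.20 (SE 0.20).

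**Figure D4:**
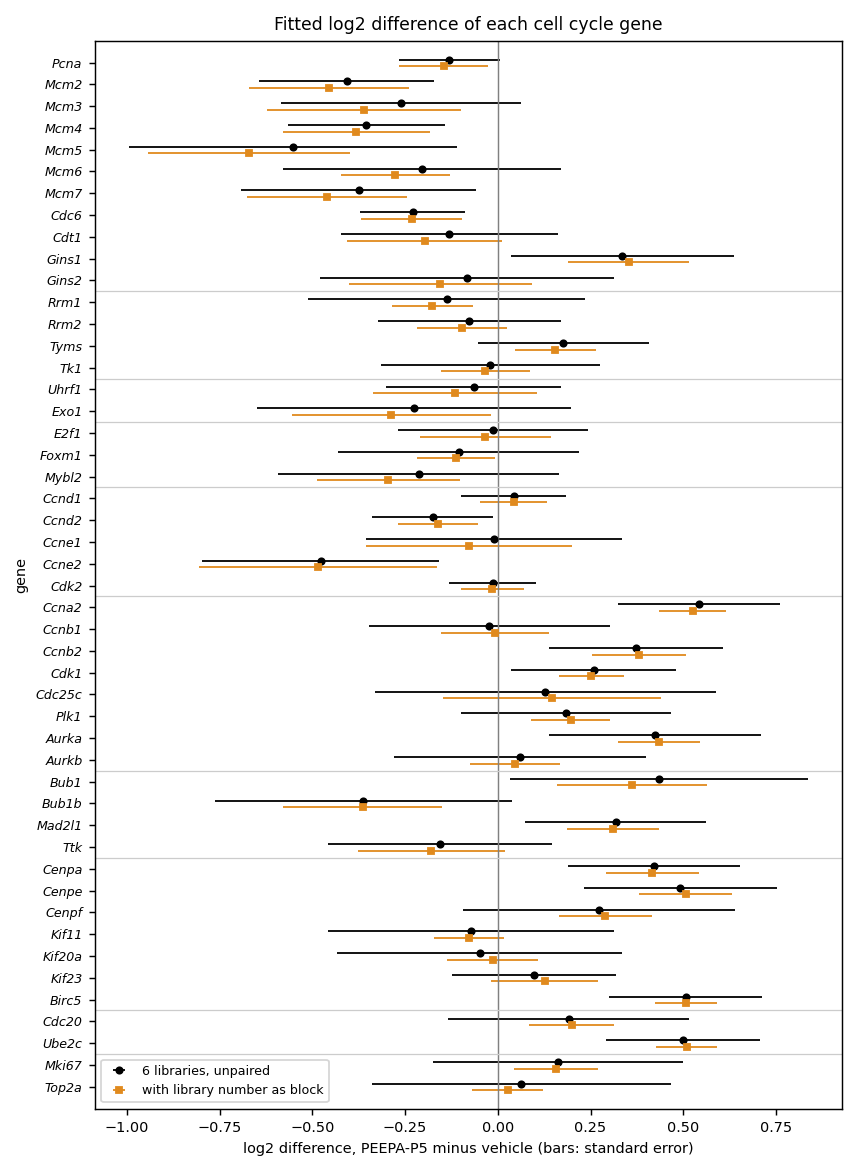
Points give the fitted log2 difference, PEEPA-P5 minus vehicle (horizontal axis), of each of the 48 genes (vertical axis, by role), without a block (black circles) and with library number as a block (orange squares); bars are standard errors. Ccna2 lies furthest right at 0.54 and Mcm5 furthest left at -0.55, and the bars shorten with the block for most mitosis genes.

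Genes were pooled after their values were seen, as 17 replication genes (licensing and fork, nucleotide supply, S phase chromatin and repair) and 23 genes of G2 and mitosis. The 23 included Ccna2, which also acts in S phase. As differences in mean log2 CPM, the replication genes had a median of -0.21, with 15 of 17 below 0. The mitosis genes had one of 0.20, with 18 of 23 above 0. This measure differs from the edgeR fit, with -0.69 in place of -0.55 for Mcm5. Over 6 scalings the medians lay between -0.31 and -0.21 for replication genes and between 0.11 and 0.20 for mitosis genes. Leaving out 1 library at a time put the replication median between -0.39 and 0.15, above 0 only when PEEPA-P5 3 was left out. The mitosis median lay between -0.049 and 0.49, below 0 only when vehicle 3 was left out. It was 0.13 without PEEPA-P5 1, 0.065 without PEEPA-P5 2, 0.49 without PEEPA-P5 3, 0.25 without vehicle 1 and 0.45 without vehicle 2. Without both libraries numbered 3, the replication median was -0.0029, with 8 of 17 above 0, and the mitosis median was 0.28, with 18 of 23 above 0. PEEPA-P5 3 was the lowest of the 6 libraries for 16 of 17 replication genes and 8 of 23 mitosis genes, against 31.4% of all genes tested. Vehicle 3 was the lowest for 1 of 17 replication genes and 15 of 23 mitosis genes, against 18.6% of all genes tested.

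A contrast inside each library does not depend on its scaling. The mean log2 CPM deviation of the 23 mitosis genes minus that of the 17 replication genes was 0.058, 0.26 and 0.31 in PEEPA-P5 libraries 1, 2 and 3, against -0.23, 0.031 and -0.43 in vehicle libraries 1, 2 and 3. All PEEPA-P5 values lay above all vehicle values, but PEEPA-P5 1 and vehicle 2 were close. Since the grouping followed the values, no test is given. The same contrast in other genes of these pathways, 71 of mitosis and cytokinesis and 51 of DNA replication, was 0.11, 0.21 and 0.14 with PEEPA-P5, against -0.087, 0.049 and -0.42 with vehicle. These genes come from the same libraries and add no samples.

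**Figure D5:**
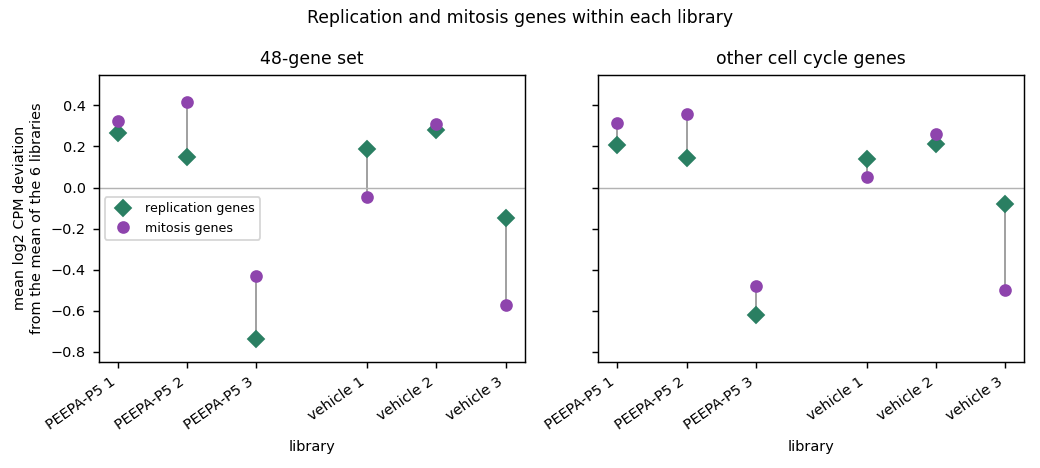
Points give the mean log2 CPM deviation from the mean of the 6 libraries (vertical axis) for replication genes (green diamonds) and mitosis genes (purple circles) in each library (horizontal axis, PEEPA-P5 left, vehicle right), for the 48 genes and for other cell cycle genes. Mitosis points lie above replication points in all 3 PEEPA-P5 libraries of both panels and, narrowly, in vehicle 2, and the widest opposite gap is in vehicle 3, at -0.43 and -0.42.

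Other genes of the pathway were taken from lists by role: 164 were listed and 160 tested, and edgeR called 0 of them at an adjusted p under 0.05. Of 51 further DNA replication genes, 36 had a log2 difference below 0 and 0 had an unadjusted edgeR p under 0.05 in either direction, with a median of -0.14; Hells, a chromatin remodeller of S phase, had 15.2, 14.8 and 6.18 CPM in PEEPA-P5 libraries against 16.3, 22.2 and 19.9 CPM in vehicle libraries. Of 71 further mitosis genes, 52 lay above 0, with a median of 0.13. With each library left out in turn that median lay between -0.072 and 0.39. It was below 0 without PEEPA-P5 1 (-0.0031), PEEPA-P5 2 (-0.020) or vehicle 3 (-0.072). Without both libraries numbered 3 it was 0.19. At an unadjusted edgeR p under 0.05, 2 of the 71 were higher (2.82%, a smaller share than the 5.92% of all genes tested). These were Bub3, a checkpoint adaptor, and Ube2s, which extends the ubiquitin chains that Ube2c starts. Ube2s had 77.9, 82.5 and 64.2 CPM in PEEPA-P5 libraries against 64.0, 58.6 and 55.4 CPM in vehicle libraries, and the groups did not overlap. Among 25 regulators around the retinoblastoma protein, E2F and DREAM, 1 was higher (4%, against 5.92% of all genes) and 3 were lower at that threshold (12%, against 6.14% of all genes), with a median log2 difference of -0.067. Ccnd3 (cyclin D3) was the higher one, at 69.5, 66.98 and 77.0 CPM with PEEPA-P5 against 62.2, 51.2 and 61.9 CPM with vehicle. Myc, a growth-promoting transcription factor, was among the lower ones, at 24.4, 24.6 and 17.9 CPM with PEEPA-P5 against 31.5, 45.8 and 29.7 CPM with vehicle (log2 difference -0.68, SE 0.21, edgeR adjusted p = 0.412); the others were Tfdp2, an E2F partner, and Rbl2, the DREAM pocket protein.

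Of 13 tested CDK inhibitors and quiescence genes, 3 were higher at an unadjusted edgeR p under 0.05 (23.1%, against 5.92% of all genes tested) and 0 were lower (against 6.14%), with a median log2 difference of 0.13. The list was mixed, with 8 genes above 0 and 5 below, and fitted log2 differences from -0.73 to 0.83. Without vehicle 3 its median was -0.0025, with 6 genes above 0 and 7 below. The genes named below all lay above 0. Cdkn3, a phosphatase that acts on CDK1 and CDK2, is in this list by its name and does not mark resting cells. It had 10.96, 11.97 and 10.3 CPM in PEEPA-P5 libraries, against 6.96, 5.61 and 6.15 CPM in vehicle libraries. Every PEEPA-P5 library lay well above every vehicle library. PEEPA-P5 3 was the lowest PEEPA-P5 library of Cdkn3 by a small margin. Vehicle 3 was not its lowest vehicle library, whereas it was for all 23 mitosis genes. The direction of Cdkn3 was that of the mitosis genes Ccna2, Birc5 and Ube2c. Its log2 difference of 0.83 (SE 0.17) had an edgeR adjusted p of 0.412 and a DESeq2 adjusted p of 0.0347, so that DESeq2 called it higher and edgeR did not. Ccng2 (cyclin G2, which is high in resting cells) had 33.7, 36.6 and 51.9 CPM in PEEPA-P5 libraries, against 29.2, 21.9 and 18.4 CPM in vehicle libraries, and here PEEPA-P5 3 was the highest of the 6 and vehicle 3 the lowest. Btg1, an antiproliferative gene, was the third, at 128, 129 and 192 CPM with PEEPA-P5 against 122, 100 and 114 CPM with vehicle. Cdkn1b (p27, which inhibits cyclin E with CDK2) also had separate groups, with 42.2, 43.6 and 43.2 CPM in PEEPA-P5 libraries against 24.3, 40.0 and 36.8 CPM in vehicle libraries, and an edgeR adjusted p of 0.467.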

How the data were processed

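Per the file headers, the authors deposited an expected count, an FPKM and a TPM value per gene and library. Per the submitters' processing notes they used Bowtie2 2.2.5, RSEM 1.2.12 and mm9; no settings or strand are stated in those sources. The deposited expected counts (9.82% not whole, no molecular identifiers) were rounded. They were tested with edgeR 4.0.16 (R 4.3.3; filterByExpr, TMM, robust quasi-likelihood, Benjamini-Hochberg over 13071 genes). Log2 CPM used a prior count of 2, and CPM was scaled by TMM library sizes. The authors' TPM, scaled to a fixed sum per library, served for levels between genes; the deposited FPKM was not used. DESeq2 1.42.0 and limma 3.58.1 were alternatives. The edgeR step was tested on simulated data in which the spread between libraries was capped, so that run does not show its power in these libraries.

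Since the labels name no separate mice, p-values reflect spread between libraries only, which may be technical. Deviations from group means of same-numbered libraries correlated at 0.237, 0.346 and 0.235, each library best with its own number; the pairing comes from this, not from the labels. PEEPA-P5 1 and vehicle 2 also correlated, at 0.176.

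The cell cycle genes, role groups and lists were chosen with earlier results of these data known. Values in every library are given for 19 central genes, those with separate groups and the 6 with the smallest p; of each further list up to 4 genes with the smallest p could be named.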

Additional observations from a re-analysis of the deposited data

How the results depend on the processing

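None of the 48 genes was called at an adjusted p under 0.05 under any of 17 alternatives, which used edgeR, DESeq2 or limma. Over all genes, DESeq2 called 101, and leaving out each library in turn gave 0 to 1 (1 without vehicle 1). The count of cell cycle genes at an unadjusted p under 0.05, 3 in the main analysis, is given here beside the share of all genes higher under the same setting. It was 0 with upper quartile factors (4.11%), 0 with total counts only (2.39%), 0 with limma on log2(TPM + 1) (2.04%) or log2(TPM + 0.1) (2.01%), 8 with the replicate block (6.62%) and 8 without both libraries numbered 3 (3.47%). With each library left out in turn it was 0 to 8. It was 0 without PEEPA-P5 1 (4.38%), PEEPA-P5 2 (5.87%) or vehicle 3 (3.05%), 8 without PEEPA-P5 3 (3.85%) and 6 without vehicle 2 (2.44%). Without vehicle 1, 1 gene was higher (7.77%) and 1 was lower (against 7.83% of all genes lower). The block changed no adjusted call. The median log2 difference of the 48 genes, -0.025, lay between -0.17 and 0.25 with each library left out. Of the 24 genes named by rule, 10 kept their direction throughout; of the others given by library, Gins1 kept it (0.099 to 0.59) and Bub1b did not (-0.59 to 0.044). Ccnd1 turned to -0.0023 with upper quartile factors, -0.040 with total counts only, -0.055 on log2(TPM + 1) and -0.057 on log2(TPM + 0.1). Under the last 3 of these settings, in that order, Aurkb turned to -0.022, -0.044 and -0.051, and Top2a to -0.016, -0.066 and -0.074. With no count filter Ccne1 was at 0.0028 and E2f1 at 0.00081. Without both libraries numbered 3, Ccne1 was at 0.17, E2f1 at 0.082, Cdt1 at 0.066 and Rrm2 at 0.0018. With each library left out in turn, ranges that crossed 0 were -0.17 to 0.33 (Aurkb), -0.24 to 0.31 (Ccnb1), -0.044 to 0.15 (Ccnd1), -0.32 to 0.26 (Ccne1), -0.034 to 0.48 (Cdc20), -0.30 to 0.15 (Cdt1), -0.16 to 0.19 (E2f1), -0.33 to 0.14 (Foxm1), -0.060 to 0.44 (Mki67), -0.43 to 0.12 (Mybl2), -0.22 to 0.0095 (Pcna), -0.035 to 0.41 (Plk1), -0.22 to 0.14 (Rrm2) and -0.20 to 0.37 (Top2a). Ranges that kept their sign but moved by over 1.5 times were -0.79 to -0.18 (Mcm5), -0.57 to -0.16 (Mcm2), -0.32 to -0.056 (Ccnd2), 0.099 to 0.44 (Cdk1), 0.30 to 0.71 (Cenpe) and 0.32 to 0.65 (Ube2c). The cause of these moves was not tested. With 3 libraries a group an exact permutation test of a single gene cannot give a p below 0.1, and the differences of most of these genes were smaller than the spread between libraries.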
